A study of Mus musculus with 20 samples.

Results

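The neocortex of miR-324-null mice was compared with that of WT mice by RNA-seq, at the level of groups of genes with a shared cell type or function and at the level of the transcripts of each gene. The 10 neocortex samples of the 20 samples in the series were used, chosen by tissue and genotype, with 5 WT and 5 miR-324-null samples, and the 10 hippocampus samples served only for comparison. All mice were males of the strain labelled C57BL/6J and 13.5 months old. The miR-324-null group carried a germline CRISPR/Cas9 deletion at *Mir324*. The authors backcrossed founders of mixed C57BL/6 and CBA/ca background to C57BL/6J, and crosses of heterozygotes then gave a WT and a miR-324-null line. Whether the WT and miR-324-null mice used were littermates is not stated. The part of any difference between the lines other than the deletion in the values below was not tested. The labels call the tissue cerebral cortex without naming an area of it. Nothing in the sources states whether each sample came from a separate mouse, and the p-values therefore measure the spread between samples as labelled, which may in part be technical. Library depth, as estimated counts assigned to annotated genes, lay between 14159900 and 14991676 (WT) and between 13617285 and 19513421 (miR-324-null). Spearman's correlation over genes, which are not independent replicates, was 0.988 to 0.994 between the 10 neocortex samples.

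MicroRNAs are short RNAs that guide Argonaute proteins to partly complementary sites in mRNAs, most often in the 3′ untranslated region, where pairing of the seed (bases 2 to 8 of the microRNA) lowers the stability or the translation of the target. The *Mir324* hairpin gives 2 mature arms with different seeds, shown here because they are the products of the deleted locus. It lies on the plus strand of chromosome 11 at chr11:70012043-70012131 (GRCm38), where the gene *Dvl2*, on the same strand, and the gene *Acadvl*, on the opposite strand, overlap. The sequences are those of RefSeq (GRCm38.p6), written 5′ to 3′ with the seed in capitals, and both arms matched by name.
mmu-miR-324-5p: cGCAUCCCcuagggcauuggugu
mmu-miR-324-3p: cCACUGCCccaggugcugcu
*Mir324* itself has no entry among the transcripts counted, and the genotype labels could not be checked by it. *Acadvl*, a mitochondrial acyl-CoA dehydrogenase, was at 32.7 to 37.3 CPM (TMM-normalised counts scaled to the library size) in WT samples and 34.5 to 39.1 CPM in the miR-324-null ones. The log2 fold change (log2FC, miR-324-null over WT in every case) was 0.078 ± 0.053 (SE, adjusted p = 0.598). *Dvl2*, a cytoplasmic transducer of Wnt signals, was at 16.1 to 21.4 and 16.0 to 22.5 CPM (log2 fold change 0.064 ± 0.10, SE, adjusted p = 0.854), and the groups overlapped for both genes.

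To ask which functions differed, 35 gene lists were described, 17 of cell types, 6 of synaptic and neuronal activity genes and 12 of mitochondrial, metabolic and protein turnover genes. Of their 741 genes, 724 passed edgeR's filter on low counts and were tested, together with all other genes. Of the 14930 genes tested, 47 were DE at a Benjamini-Hochberg adjusted p of at most 0.05 in edgeR's quasi-likelihood test (0.315%), 24 of them higher (0.161%) and 23 of them lower (0.154%) without miR-324. Of the 724 list members 4 were among them, a share above that of all genes tested: *Rplp0* rose, and *Mrpl27*, *Nr4a3* and *Egr1* fell. At a nominal (unadjusted) p of 0.05 or less there were 88 list members higher and 46 lower, where all genes tested gave 12.2% (6.74% higher and 5.46% lower). The share of the 724 was above that of all genes in both directions. The median log2FC of the list members was 0.011, against 0.0046 over all genes tested. DE refers to this edgeR fit unless another is named, and DESeq2 called 26 list members, these 4 among them. Counts at the nominal p only describe a list beside these background shares. With 1 sample left out the medians of 29 of the 35 lists moved by over 1.5 times or turned sign at least once, and those of the striatal, excitatory, endothelial, glutamate receptor, immediate early and citric acid cycle lists did not.

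**Figure D1:**
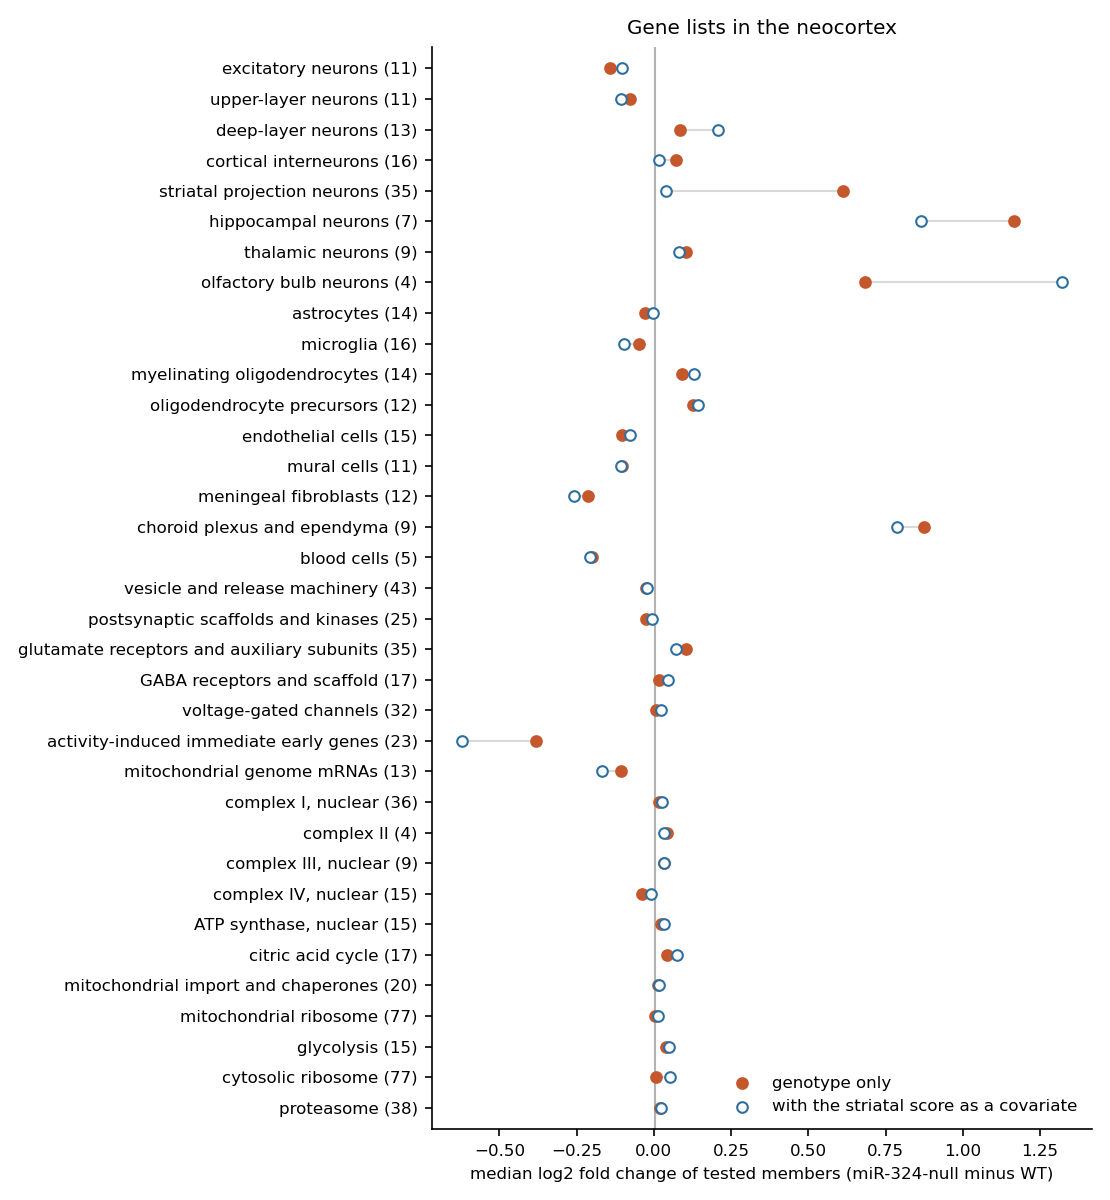
Median log2FC of the tested members of each of the 35 lists (x axis, miR-324-null minus WT; number of tested members in parentheses), from the genotype-only fit (filled) and from the fit with the striatal score as a covariate (open); the grey line is the median of all genes tested. The lists of striatal (0.61), hippocampal (1.16), olfactory bulb (0.68) and choroid plexus cells (0.87) lie far to the right of the line and the immediate early genes (-0.38) to its left.

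Markers of the labelled tissue were looked at first. Excitatory projection neurons form most of the neurons of the neocortex, and their vesicular glutamate transporter *Slc17a7* was at 1317, 1403, 1191, 1220.4 and 1283 CPM in WT replicates 1 to 5. In miR-324-null replicates 1 to 5 it was at 1191, 1116, 1183, 1129.6 and 1199 CPM. The transcription factor *Neurod6*, the other defining marker, was at 66.9 to 88.2 and 57.2 to 80.4 CPM, so that both markers were present in all 10 samples. The upper-layer markers *Cux2* and *Cux1* and the deep-layer markers *Fezf2* and *Etv1* were likewise detected in every sample, at no less than 22.6 CPM. The labelled cerebral cortex thus holds its defining markers in both genotypes. Not all of them tell it from the hippocampus, where *Slc17a7* was at 1305 to 1399 CPM in WT samples (normalised over all 20 samples). Deep-layer genes summed to 410 to 552 CPM in WT neocortex and 525 to 614 CPM in WT hippocampus. Upper-layer genes did differ, at 669 to 781 CPM in WT neocortex and 261 to 339 CPM in WT hippocampus.

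Genes of the striatum were higher in most miR-324-null samples than in most WT samples. Medium spiny neurons, the projection neurons of the striatum, lie below the neocortex and express dopamine receptors with a characteristic set of signalling proteins, and the neocortex expresses many genes of that set at lower levels. The summed level of the 35 tested genes of the 37 listed was 1394, 2224, 1625, 1455 and 1454 CPM in WT replicates 1 to 5. In miR-324-null replicates 1 to 5 it was 2091, 1870.0, 3082, 2351 and 1645 CPM. WT replicate 2 stood apart from the other WT samples and above miR-324-null replicates 1, 2 and 5, so the groups overlapped. No member passed edgeR's adjusted test, 23 were higher and 1 was lower at a nominal p of 0.05 or less, and the median log2FC was 0.61, with 34 of 35 members above 0.

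The dopamine receptor *Drd1* of the direct pathway was at 7.63, 18.5, 10.5, 8.07 and 8.41 CPM in WT samples and at 20.7, 15.3, 40.9, 21.7 and 12.3 CPM in miR-324-null replicates 1 to 5 (log2FC 1.06 ± 0.32, SE, adjusted p = 0.214). For *Drd2*, the receptor of the indirect pathway, the levels were 1.28, 16.9, 4.77, 1.06 and 1.44 CPM in WT samples and 11.5, 10.9, 28.3, 16.7 and 5.19 CPM in miR-324-null samples (1.52 ± 0.65, adjusted p = 0.368). Here and below, bare values in parentheses are log2FC with SE. For both receptors WT replicate 2 was the highest WT sample, above miR-324-null replicates 2 and 5 for *Drd1* and above all miR-324-null samples but replicate 3 for *Drd2*. The adenosine receptor *Adora2a* ranged from 2.05 to 17.2 CPM in WT samples and from 8.97 to 35.9 CPM in miR-324-null samples, and the opioid precursor *Penk* from 25.9 to 103 and from 54.7 to 217 CPM. The 2 lowest p of the list belonged to *Bcl11b* (CTIP2), a transcription factor also of deep cortical layers, at 52.01, 58.9, 59.6, 53.6 and 57.3 CPM in WT samples and 76.5, 71.8, 76.1, 75.2 and 54.5 CPM in miR-324-null samples (0.33 ± 0.086, adjusted p = 0.152), and to *Slc35d3*, of the nucleotide sugar transporter family (1.91 ± 0.54, adjusted p = 0.185). Both were DE with DESeq2. Within the WT range lay miR-324-null replicates 2 and 5 for *Drd1*, replicates 1, 2, 4 and 5 for *Drd2* and replicate 5 for *Bcl11b*. *Adora2a* and *Penk* were named after their values were seen. A single member, the potassium channel *Kcnh4*, named after its values were seen, lay lower in every miR-324-null sample (14.7 to 21.1 CPM) than in any WT sample (21.4 to 26.3 CPM, adjusted p = 0.213), a separation of groups seen in 2.20% of all genes tested. In whole tissue, fewer cells of a type and less RNA per cell cannot be told apart, here and for every cell type list.

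In the hippocampus the same list had a median log2FC of -0.21 over 31 tested members, with 0 higher and 7 lower at a nominal p of 0.05 or less, against 5.34% higher and 5.71% lower of the 14796 genes tested there. The list median thus had opposite signs in the 2 tissues, and no member passed the test of the genotype-by-tissue interaction. The interaction value, the neocortex log2FC less that of the hippocampus, was above 0 for 35 of 35 tested members, with a median of 0.84, and 21 were higher and 0 lower at a nominal p of 0.05 or less, the rate over all genes being 5.57% for both directions together.

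Markers of other regions that border the neocortex followed 2 patterns. Hippocampal neuron genes had higher levels in most miR-324-null samples. The summed level of the 7 tested genes of 10 was 53.5, 62.4, 55.8, 53.6 and 55.4 CPM in WT samples and 97.8, 78.3, 65.4, 86.4 and 56.7 CPM in miR-324-null replicates 1 to 5, with a median log2FC of 1.16, 4 members higher and 0 lower at a nominal p of 0.05 or less. Without miR-324-null replicate 1 the median was 0.64. WT replicate 2 exceeded only miR-324-null replicate 5. *Fibcd1*, a receptor for acetylated ligands that marks CA1 pyramidal neurons, was at 5.13, 7.64, 5.69, 6.23 and 6.84 CPM in WT samples and 15.7, 13.4, 10.4, 23.4 and 7.83 CPM in miR-324-null samples (1.16 ± 0.25, SE, adjusted p = 0.0854). Its groups did not overlap. The granule cell factor *Prox1* was at 17.6, 16.7, 15.8, 15.5 and 17.99 CPM and at 27.1, 27.4, 20.01, 23.99 and 17.1 CPM (0.47 ± 0.12, adjusted p = 0.149). The granule cell gene *C1ql2*, the other defining marker, was at 0.577 to 4.46 CPM in WT samples and 1.68 to 15.1 CPM in miR-324-null samples. None of the 7 passed edgeR's adjusted test with all samples and the default filter. *Fibcd1* was DE without the filter (adjusted p = 0.0419), with DESeq2 (8.34e-04), with the length offset in DESeq2 (0.00146) and in edgeR without miR-324-null replicate 5 (0.00637), and *Prox1* with DESeq2 (0.0348) and without that library (0.00772). Neither was DE in any other alternative fit, and that library was the lowest miR-324-null sample for both. In the hippocampus itself the list's median was -0.21 over 10 tested members.

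The second pattern was mostly that of 1 library. The choroid plexus and ependyma genes, which secrete and line the cerebrospinal fluid spaces, summed to 108, 155, 145, 123.4 and 116 CPM in WT samples and to 158, 920.2, 143, 165 and 111 CPM in miR-324-null replicates 1 to 5. miR-324-null replicate 2 stood far above the 9 others, and its transthyretin gene *Ttr*, the most abundant choroid plexus mRNA, was at 762 CPM against 10.1 to 51.1 CPM in the 9 others. The list's median log2FC was 0.87 over 9 tested genes of 15 and 0.40 without that library. Olfactory bulb genes did the same, at 8.10, 6.13, 7.48, 9.20 and 6.02 CPM in WT samples and 9.13, 55.8, 12.3, 10.1 and 8.10 CPM in miR-324-null samples, with a median of 0.68 over 4 tested genes of 6 and 0.080 without replicate 2. *Cdhr1*, a protocadherin-related gene of mitral cells and photoreceptors, was at 4.42, 32.2, 7.07, 4.81 and 1.24 CPM in miR-324-null replicates 1 to 5 and at 1.82, 1.08, 1.85, 1.42 and 2.26 CPM in WT samples. Thus miR-324-null replicates 1, 3 and 4 also lay above every WT sample, and without replicate 2 its log2FC was 1.36 ± 0.39 (SE, adjusted p = 0.236). With all samples it was DE with DESeq2 (2.55, adjusted p = 0.0467) and not in edgeR (adjusted p = 0.173), where it was DE without replicate 5 (2.86, adjusted p = 0.021). No other alternative fit called *Cdhr1*. Thalamic markers had a summed level of 92.9 to 109 CPM in WT samples and 94.00 to 149 CPM in miR-324-null samples and a median of 0.10. The lowest p among them was that of the kinase gene *Prkcd* (0.73 ± 0.20, adjusted p = 0.163), which was DE with DESeq2 (0.72, adjusted p = 0.0336) and in edgeR without miR-324-null replicate 5 (0.88, adjusted p = 0.00637). *Prkcd* was DE in no other alternative fit.

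**Figure D2:**
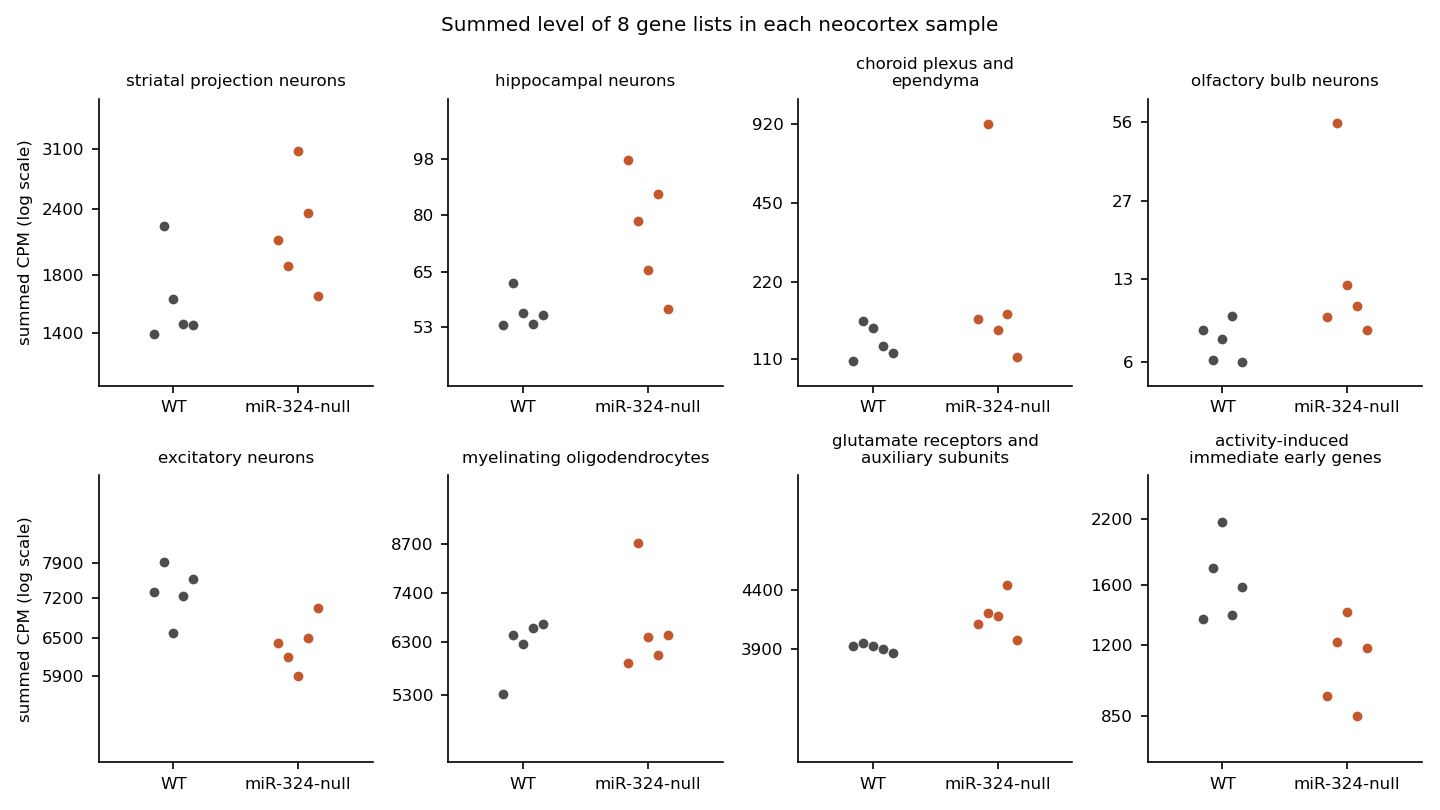
Summed CPM (y axis, log scale, a separate range in each panel) of 8 gene lists in each neocortex sample, with replicates 1 to 5 from left to right within WT (grey) and miR-324-null (orange). The groups are separate only in the panel of glutamate receptors (WT 3872 to 3946, miR-324-null 3975 to 4442), and replicate 2 of the miR-324-null group stands alone in the choroid plexus (920.2) and olfactory bulb (55.8) panels.

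Among the neocortex's own neurons, no list member was DE in the edgeR fit of all 10 samples. Excitatory neuron genes summed to 7322, 7915, 6591, 7243 and 7570.4 CPM in WT samples and 6423, 6193, 5894, 6501 and 7031 CPM in miR-324-null replicates 1 to 5, with a median log2FC of -0.14, 10 of 11 members below 0, and 6 lower and 0 higher at a nominal p of 0.05 or less. The upper-layer factor *Cux2* was at 145, 141, 111, 133 and 121 CPM in WT samples and 96.7, 85.4, 100, 103 and 116 CPM in miR-324-null samples (-0.38 ± 0.086, adjusted p = 0.105), where replicate 5 alone reached the WT range. It was DE with DESeq2 (log2FC -0.38, adjusted p = 0.00666), with the length offset in DESeq2 (-0.33, 0.0439) and in edgeR without replicate 5 (-0.44, 0.0129). No other alternative fit called *Cux2*. Upper-layer genes had 4 of 11 lower and 1 higher at a nominal p of 0.05 or less (median -0.079), and deep-layer genes 4 of 13 higher and 0 lower (median 0.085). Both medians depended on single libraries, as that of the upper-layer genes ranged from -0.19 without miR-324-null replicate 5 to -0.0080 without miR-324-null replicate 1, and that of the deep-layer genes from -0.0007 without WT replicate 5 to 0.14 without WT replicate 1.

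Genes of GABAergic interneurons had 5 of 16 members higher and 0 lower at a nominal p of 0.05 or less (median 0.071). The GABA-synthesising enzyme *Gad2* was at 129, 134, 135, 114 and 125 CPM in WT samples and 156, 177, 217, 169.5 and 115 CPM in miR-324-null samples (0.39 ± 0.13, SE, adjusted p = 0.245). The vesicular GABA transporter *Slc32a1* was at 72.3, 75.1, 64.99, 65.9 and 65.9 and 84.1, 80.8, 97.2, 76.3 and 75.3 CPM, in groups that nearly touched but did not overlap (0.26 ± 0.072, adjusted p = 0.166). Medium spiny neurons are GABAergic too, and with the striatal score in the fit the values were 0.11 for *Gad2* and 0.14 for *Slc32a1*. *Gad1*, the other GABA-synthesising enzyme gene, was at 0.21 ± 0.078 without the score (adjusted p = 0.31) and at 0.17 ± 0.11 with it. It was DE with the length offset in DESeq2 alone among the fits of all samples (log2FC 0.28, adjusted p = 0.0496). The part of striatal cells in the values of these 3 genes was not tested.

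Glial and vascular lists held no DE gene. Astrocyte genes had 0 of 14 members at a nominal p of 0.05 or less (median -0.028), and the glial water channel *Aqp4* was at 89.2 to 114 CPM in WT samples and 55.1 to 120.2 CPM in miR-324-null samples. Microglial genes had 3 of 16 lower (median -0.050), with the lowest p for the complement genes *C1qb* (-0.25 ± 0.068, SE, adjusted p = 0.166) and *C1qc* (-0.22 ± 0.079, adjusted p = 0.287), while the chemokine receptor *Cx3cr1* had a value of -0.080 ± 0.10. Myelin genes were above 0 in 14 of 14 members without any at a nominal p of 0.05 or less, with a median of 0.091 that became -0.016 without miR-324-null replicate 2, whose summed level of 8717 CPM exceeded the 5308 to 6694 CPM of the 9 other samples. Oligodendrocyte precursor genes had 2 of 12 higher (median 0.12), with *C1ql1* at 5.23 to 6.09 CPM in WT samples and 6.32 to 10.2 CPM in miR-324-null samples (0.50 ± 0.13, adjusted p = 0.148). Endothelial (median -0.10) and mural cell lists (median -0.10) each had 2 members lower and 0 higher. Meningeal fibroblast (median -0.21) and blood cell genes (median -0.20) had none, and the defining haemoglobin genes *Hba-a1* and *Hba-a2* are near-identical copies between which reads may be divided.

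Whether other differences moved with the striatal genes was examined by adding each sample's mean log2 CPM of the striatal list to the fit as a covariate. Of the 14930 genes, 12 remained DE (0.0804%), all 12 among the 47, and 6.76% had a nominal p of 0.05 or less (3.28% higher and 3.48% lower). The median of the striatal list itself moved from 0.61 to 0.040, which the construction of the covariate fixes. The hippocampal median was 0.87, the excitatory median -0.10, and that of the immediate early genes moved further from 0, to -0.62. Of the 4 list members DE without the covariate, *Mrpl27* was the only one DE with it. The 3 others kept the sign of their log2FC, which with the covariate was -0.85 ± 0.22 for *Egr1* against -0.91 without it (adjusted p = 0.475), -0.64 ± 0.18 for *Nr4a3* against -0.84 (0.523) and 0.36 ± 0.11 for *Rplp0* against 0.45 (0.614). The score itself differs between the genotypes, and what the covariate takes away from a gene cannot be told apart from a genotype difference that runs with it.

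Synaptic genes are the lists closest to the excitability of the cortex, since vesicle proteins set transmitter release and receptors set its effect. No member of the vesicle, scaffold, receptor and channel lists was DE, while DESeq2 called 3 vesicle genes lower, 1 scaffold gene higher and 1 lower, and 4 glutamate receptor genes, 1 GABA receptor gene and 1 channel gene higher. Vesicle and release genes had 5 of 43 higher and 6 lower at a nominal p of 0.05 or less (median -0.025). *Napa*, which recycles SNARE complexes, had a log2FC of -0.19 ± 0.052 (adjusted p = 0.173). Postsynaptic scaffolds and kinases had 3 of 25 higher and 2 lower (median -0.025), and the 2 of lowest p had opposite signs, the densin gene *Lrrc7* at 0.33 ± 0.081 (adjusted p = 0.148) and the scaffold gene *Shank1* at -0.22 ± 0.061 (adjusted p = 0.167).

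Glutamate receptors and their auxiliary subunits were the only list of the 35 whose summed level separated the groups, at 3923, 3946, 3928, 3899.6 and 3872 CPM in WT samples and 4104, 4200.0, 4171, 4442 and 3975 CPM in miR-324-null replicates 1 to 5. The closest samples were WT replicate 2 and miR-324-null replicate 5, and the log2 ratio of the means was 0.094. Of the 35 members, 27 were above 0, 10 were higher and 2 lower at a nominal p of 0.05 or less, and the median was 0.10. *Cacng8*, a transmembrane AMPA receptor regulatory protein, was at 17.2, 17.7, 15.9, 16.9 and 17.4 CPM in WT samples and at 20.8, 20.6, 19.2, 20.7 and 19.99 CPM in miR-324-null samples (0.25 ± 0.055, SE, adjusted p = 0.0881). Its relatives *Cacng2* (-0.22) and *Cacng3* (-0.16) had values below 0, and *Cacng5* (1.02) ranged from 5.13 to 6.77 CPM in WT samples and from 5.46 to 25.8 CPM in miR-324-null samples. The metabotropic receptor *Grm5* was at 148, 122.6, 138, 118 and 129 and 170.2, 165, 173, 192 and 139 CPM (0.36 ± 0.082, adjusted p = 0.105), in groups that overlapped through miR-324-null replicate 5. The NMDA receptor subunit *Grin2b* lay at 287 to 317 CPM in WT samples and 333 to 483 CPM in miR-324-null samples without overlap (0.32, adjusted p = 0.163), the AMPA receptor subunit *Gria1* at 259.8 to 294 and 273 to 384 CPM (0.32, adjusted p = 0.152), and the obligatory NMDA subunit *Grin1* at -0.033. *Cacng2*, *Cacng3*, *Cacng5*, *Grin2b*, *Gria1* and *Grin1* were named after their values were seen. With the striatal covariate the list's median was 0.072 with 4 higher and 0 lower, and in the hippocampus it was -0.011, with 3 higher and 3 lower.

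GABA receptor genes had 4 of 17 higher and 0 lower at a nominal p of 0.05 or less (median 0.017). Voltage-gated channels had 6 of 32 higher and 2 lower (median 0.0071), with the lowest p for the A-type potassium channel *Kcna4* (0.42 ± 0.11, adjusted p = 0.152) and the R-type calcium channel *Cacna1e* (0.21 ± 0.061, adjusted p = 0.203).

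Immediate early genes held 2 of the 4 DE members, both lower in miR-324-null neocortex. These genes are transcribed within minutes of neuronal firing and their mRNAs decay soon after, so they are widely used as readouts of recent activity. Of 23 members, 2 fell and 0 rose in the adjusted test, 9 were lower and 1 higher at a nominal p of 0.05 or less, and 20 of 23 were below 0, with a median of -0.38. The zinc finger factor *Egr1* was at 482, 470.2, 553, 410.0 and 448 CPM in WT samples and 177, 259.5, 296, 174 and 351 CPM in miR-324-null replicates 1 to 5. Every miR-324-null sample lay below every WT sample, and the log2FC was -0.91 ± 0.17 (SE, adjusted p = 0.0486). The orphan nuclear receptor *Nr4a3* was at 40.3, 25.95, 46.6, 32.1 and 33.3 CPM in WT samples and 20.8, 17.7, 16.3, 21.9 and 23.2 CPM in miR-324-null samples, again without overlap (-0.84 ± 0.14, adjusted p = 0.0317). Both calls were close to the threshold: *Egr1* was DE in 7 and *Nr4a3* in 10 of the 20 alternative fits, with adjusted p from 0.00359 to 0.475 and from 1.66e-05 to 0.523.

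The other members varied widely within each group. *Arc*, the cytoskeletal gene of active synapses, ranged from 108 to 437 CPM in WT samples and from 42.3 to 291 CPM in miR-324-null samples (-0.80, adjusted p = 0.567), and *Fos*, the AP-1 subunit, from 16.01 to 61.9 and from 6.63 to 37.3 CPM (-0.78, adjusted p = 0.5). *Egr2* (-1.38), *Nr4a1* (-0.76), *Klf4* (-0.58) and *Egr4* (-0.55) lay below 0, and *Jun* (0.41, adjusted p = 0.185) and *Nr4a2* (0.35) lay on the other side. The summed level was 1359, 1740.1, 2176, 1389 and 1590.3 CPM in WT samples and 938, 1219, 1407, 851 and 1183 CPM in miR-324-null samples, where only miR-324-null replicate 3 exceeded the lowest WT samples. With the striatal covariate 0 members were DE, 14 were lower and 0 higher at a nominal p of 0.05 or less. In the hippocampus the median was -0.24, with 1 lower and 0 higher, *Egr1* at -0.50 (adjusted p = 0.494) and *Nr4a3* at -0.038 (adjusted p = 0.932). *Arc*, *Fos*, *Egr2*, *Nr4a1*, *Klf4*, *Egr4*, *Jun* and *Nr4a2* were named after their values were seen.

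**Figure D3:**
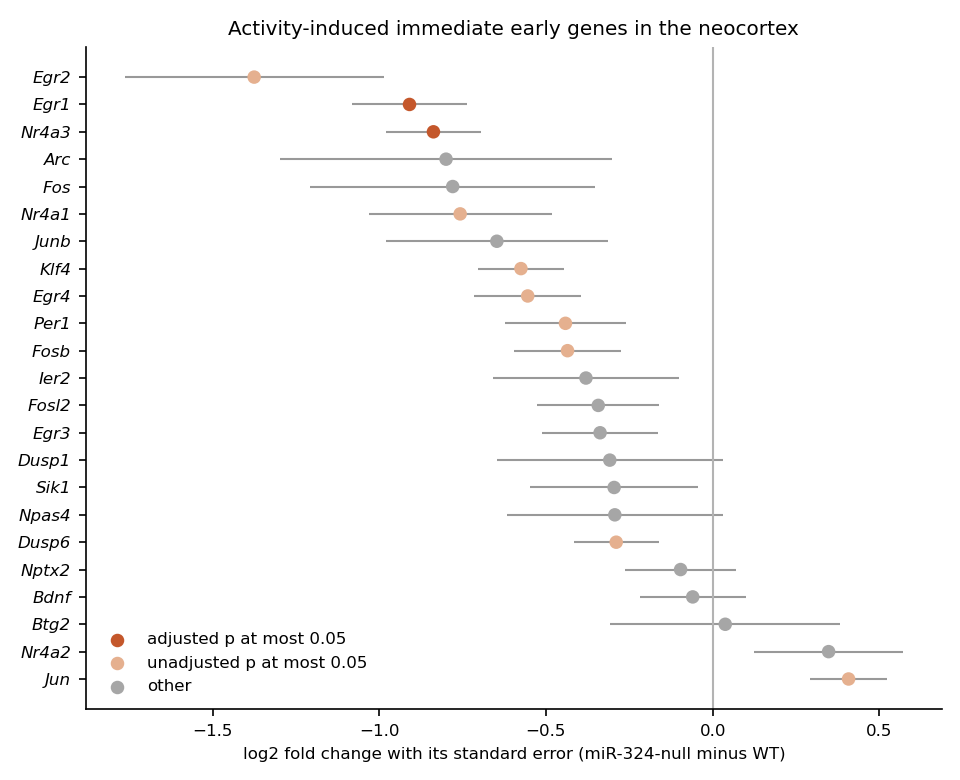
Log2FC with its standard error (x axis, miR-324-null minus WT, n = 5 per group) of the 23 activity-induced immediate early genes in the neocortex, coloured by the edgeR test. Of the 23 genes, 20 lie below 0, and *Egr1* and *Nr4a3* pass the adjusted test.

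Of all mitochondrial genes in the lists, 1 was DE. The mitochondrial ribosome translates the mRNAs of the mitochondrial genome, and its large subunit gene *Mrpl27* was at 21.3, 24.5, 25.4, 26.1 and 24.96 CPM in WT samples and 9.79, 8.37, 9.35, 9.45 and 8.91 CPM in miR-324-null replicates 1 to 5. The groups were far apart, at 24.5 ± 1.85 and 9.18 ± 0.548 CPM (mean ± SD, n = 5 each), and *Mrpl27* fell with a log2FC of -1.42 ± 0.073 (SE, adjusted p = 4.09e-07), in 20 of 20 alternative fits. In the hippocampus it fell likewise (-1.34, adjusted p = 2.51e-07). *Mrpl27* lies on chromosome 11, as *Mir324* does, and 19 of the 47 DE genes did (40.4%, against 7.92% of the genes tested). The part of position in these calls was not tested. Of the other 76 mitochondrial ribosome genes none was DE, and the list had 3 higher and 4 lower at a nominal p of 0.05 or less with a median of 0.0021. The next in order of p, *Mrpl10*, also on chromosome 11, was at 41.3, 43.1, 41.4, 39.5 and 39.9 CPM in WT samples and 53.3, 47.5, 46.97, 47.7 and 46.5 CPM in miR-324-null samples, without overlap (0.24 ± 0.050, adjusted p = 0.0822). It was DE with the length offset in edgeR (log2FC 0.43, adjusted p = 0.00128), with DESeq2 (0.23, 0.0132), with that offset in DESeq2 (0.43, 1.37e-11) and in edgeR without miR-324-null replicate 5 (0.25, 0.0227). No other alternative fit called *Mrpl10*.

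The 13 mRNAs of the mitochondrial genome had 3 lower and 0 higher at a nominal p of 0.05 or less, none DE in edgeR, and a median of -0.11. They were *mt-Nd6*, *mt-Nd5* and the cytochrome oxidase subunit *mt-Co1* (-0.22, adjusted p = 0.31), the last named after its values were seen. *mt-Nd6*, the only one of them encoded on the light strand, was at 1273, 1693, 1409, 1574 and 1576 CPM in WT samples and 1342, 1077, 736, 1181 and 920.2 CPM in miR-324-null samples (-0.52 ± 0.13, SE, adjusted p = 0.152). Among the alternative fits, *mt-Nd6* was DE only with the length offset in DESeq2 (-0.53, adjusted p = 0.017). *mt-Nd5*, which lies beside it, had a value of -0.45 ± 0.13 (adjusted p = 0.196). miR-324-null replicate 1 lay within the WT range for both genes, and the 4 other samples lay below it. The remaining complex I subunits of the mitochondrial genome, *mt-Nd1* to *mt-Nd4* and *mt-Nd4l*, given after their values were seen, lay between -0.13 and 0.040. The 2 genes run on opposite strands with adjoining ends, and whether reads were counted by strand is not given in the sources used here.

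The nuclear genes of the respiratory chain had medians of 0.017 for complex I (36 genes), 0.041 for complex II (4), 0.033 for complex III (9), -0.040 for complex IV (15) and 0.022 for the ATP synthase (15), and 3 of these genes had a nominal p of 0.05 or less. They were the complex I accessory subunit *Ndufa12* (0.39 ± 0.15, SE), the complex IV subunit *Cox7a1* (0.69 ± 0.24) and the supercomplex factor *Cox7a2l* (-0.20 ± 0.056), with adjusted p of 0.31, 0.278 and 0.188. Citric acid cycle (median 0.043) and import genes (median 0.014) held no DE gene either, the latter with 3 of 20 higher, among them the chaperonins *Hspe1* (0.22 ± 0.074, adjusted p = 0.262) and *Hspd1* (0.13 ± 0.045, adjusted p = 0.276). Glycolysis genes had 3 of 15 higher (median 0.038), and 0 higher and 0 lower with the length offset in edgeR (median 0.024). *Gapdh* had the largest value of them (0.47 ± 0.13, adjusted p = 0.172), but its sign turned to -0.030 in edgeR and -0.033 in DESeq2 when the length of the assigned transcripts was taken into account. Proteasome genes had 0 of 38 at a nominal p of 0.05 or less (median 0.020).

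Of 77 genes of the cytosolic ribosome, *Rplp0*, a protein of the ribosomal stalk, was the only one DE, and the list median was 0.0066. *Rplp0* was at 126.1, 131.9, 111.1, 118.1 and 126.1 CPM in WT samples and 191.9, 177.1, 165.6, 168.6 and 132.5 CPM in miR-324-null replicates 1 to 5. The lowest miR-324-null sample (132.5 CPM) and the highest WT sample (131.9 CPM) nearly touched, and *Rplp0* rose with a log2FC of 0.45 ± 0.084 (SE, adjusted p = 0.0486), in 5 of 20 alternative fits and with adjusted p from 3.14e-04 to 0.614 over them. Ribosomal protein genes have many near-identical pseudogenes, between which reads may be divided.

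**Figure D4:**
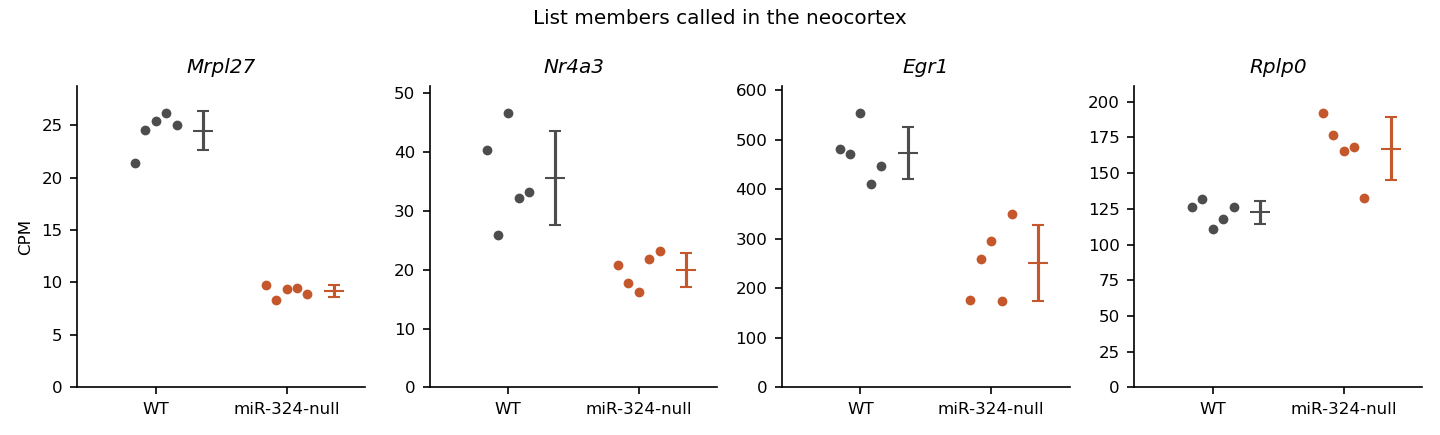
CPM (y axis, from 0) of the 4 list members that were DE in the neocortex, in replicates 1 to 5 from left to right, with mean and SD beside each group (n = 5). *Mrpl27*, *Nr4a3* and *Egr1* are lower in every miR-324-null sample than in any WT sample, and *Rplp0* is higher, with the closest samples at 132.5 and 131.9 CPM.

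The number of DE genes depended on 1 library. In the 10 fits that left out 1 sample each, 27 to 34 genes were DE in 9 of them, and 549 (3.68%) without miR-324-null replicate 5, 299 higher (2.0%) and 250 lower (1.67%). All 47 genes were among the 549. Of the 724 list members, 64 were DE in that fit, 43 higher and 21 lower, a larger share than that of all genes tested. Among them were *Drd1*, *Penk*, *Bcl11b*, *Slc35d3*, *Gad2*, *Slc32a1*, *C1ql1*, *Cacng8*, *Cacng5*, *Grm5*, *Grin2b*, *Gria1*, *Lrrc7*, *Kcna4*, *Cacna1e* and *Jun* on the higher side and *Napa*, *Cacng2* and *Klf4* on the lower. With all samples DESeq2 called *Grm5*, *Grin2b*, *Gria1*, *Lrrc7* and *Kcna4* higher and *Napa*, *Shank1*, *Egr2* and *Klf4* lower. By list, 9 striatal genes were higher and 0 lower, 8 glutamate receptor genes higher and 1 lower, 6 channel genes higher and 2 lower, 3 excitatory neuron genes lower and 0 higher, and 6 immediate early genes lower and 1 higher. The respiratory chain, citric acid cycle, glycolysis and proteasome lists had 0 in that edgeR fit. That library was the lowest of the miR-324-null samples in the striatal and hippocampal sums, and the part of this in the larger count was not tested.

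Transcript usage, the share of a gene's transcripts that each one takes, was compared next, since a gene can keep its level while its transcripts change places. In edgeR's test of a transcript against its gene, 22 of 30389 transcripts were called at an adjusted p of at most 0.05 (0.0724%), 15 of them higher (0.0494%) and 7 of them lower (0.0230%) without miR-324, and 1.86% had a nominal p of 0.05 or less. On counts simulated without any difference this test made about as many calls as on the measured ones, and a limma test of the log2 shares made almost none. Only the 7 transcripts called by both are therefore described as changed, in their estimated share. Those called by edgeR alone are given as values that the test does not separate from its false calls. The simulated counts were drawn for each transcript separately, without the error of dividing reads between transcripts. They therefore cannot show that the 7 are free of that error. The limma test called 13 (0.0428%). In the lists, 3 of 1808 transcripts were called by edgeR, 2 higher and 1 lower, and 2.32% had a nominal p of 0.05 or less. Of the 7 transcripts, 4 lie on chromosome 11, where 7.85% of the transcripts tested lie. The division of reads between transcripts has an error of its own, which these data do not give. Of the 7, Fmnl1-203, Mrpl10-202, E2f6-201 and Poli-203 have 0 bases that no other annotated transcript of their gene holds. Their shares rest on exon junctions or on the division of shared reads.

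The lowest p in edgeR's usage test was that of *Fmnl1*, a formin that assembles actin filaments, on chromosome 11. Fmnl1-203 took 20.7, 15.7, 15.5, 13.3 and 16.8% of the gene's TPM in WT replicates 1 to 5, from 573 to 726 estimated counts, and had 0 counts in each miR-324-null sample, where 0 allows up to 3 counts (adjusted p = 2.92e-21 by edgeR and 1.38e-06 by limma). Fmnl1-207 took 8.37, 6.35, 6.99, 8.07 and 9.24% in WT samples and 28.7, 28.8, 25.8, 30.4 and 29.9% in miR-324-null samples (1.09e-10 and 0.00139). In the hippocampus Fmnl1-203 took 13.6% to 18.4% in WT samples and again had 0 counts without miR-324, and Fmnl1-207 took 9.93% to 15.04% and 24.8% to 36.5%. The level of *Fmnl1* as a whole did not pass the test (log2FC -0.30, adjusted p = 0.271). The 2 transcripts differ in 2 coding exons of GENCODE (GRCm38). Fmnl1-203 alone of the pair holds one of 99 bases at chr11:103198135-103198233, near its end, and Fmnl1-207 alone holds one of 18 bases at chr11:103183016-103183033. The second is shown because no other annotated transcript of the gene holds it, in capitals and with the coding bases around it, beside the same junction of Fmnl1-202 without it, on the plus strand.
Fmnl1-207: catcaaGTGCCCCCCTTCTCCCCGgctgac
Fmnl1-202: catcaagctgac
An exon of 18 bases adds whole codons, and the reading frame around it is kept.

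*Cep131*, a protein of centriolar satellites, showed a transcript that was not detected in WT. Cep131-202 took 0% in the 5 WT samples, from 0 counts each, and 10.98, 23.2, 15.7, 12.5 and 5.07% in miR-324-null replicates 1 to 5, from 46.8 to 223 estimated counts (adjusted p = 1.09e-10 by edgeR and 0.0022 by limma). In the hippocampus it had 0 counts in every WT sample and took 4.07% to 28.5% in the miR-324-null ones. It differs from Cep131-201 at 1 exon junction, where each transcript holds bases that the other lacks, shown in capitals on the coding (minus) strand of chromosome 11 (GRCm38). Those of Cep131-202 are at chr11:120073123-120073127 and those of Cep131-201 at chr11:120072975-120072976.
Cep131-202: gcagccattcagGTACTacaacagaaacga
Cep131-201: gcagccattcagGAacaacagaaacga
The shares of both transcripts thus rest on reads across a few bases. Cep131-201 ranged from 25.0% to 31.4% in WT samples and from 8.05% to 26.5% in miR-324-null samples.

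Mrpl10-202, on chromosome 11, lacks coding stretches of 108 and 126 bases that Mrpl10-201 holds. It took 0% to 1.51% in WT samples, from at most 3.45 counts. In miR-324-null samples it rose to 8.16, 23.4, 22.6, 25.4 and 25.7%, where replicate 1 was the lowest (adjusted p = 6.25e-04 by edgeR and 0.0118 by limma). In the hippocampus it had 0 counts in every WT sample and took 12.5% to 21.3% in the miR-324-null ones. E2f6-201, of the E2F family's repressor gene on chromosome 12, rose from at most 0.766% in WT to 14.3, 3.63, 14.8, 13.5 and 6.74% in miR-324-null samples (2.52e-06 and 0.0191). In the hippocampus its groups overlapped, at 0% to 12.5% and 0.000228% to 5.36%.

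Ndst4-204 belongs to an enzyme that modifies heparan sulfate, on chromosome 3, and holds 574 bases outside the coding sequence that no other annotated transcript of the gene holds. It took 0% in WT samples and 26.6, 58.1, 62.6, 43.9 and 43.5% in miR-324-null replicates 1 to 5, from 68.3 to 269 estimated counts (adjusted p = 2.09e-04 by edgeR and 7.09e-07 by limma). The gene as a whole rose (log2FC 2.82, adjusted p = 0.00934). In the hippocampus Ndst4-204 took 49.9% to 77.4% in WT samples and 36.6% to 72.5% in the miR-324-null ones, and the transcript was thus one that the hippocampus of both genotypes held. Hippocampal neuron genes had higher sums in most of the same neocortex samples, as given above, and their part in *Ndst4* was not tested. Poli-203, of DNA polymerase iota on chromosome 18, lies outside the rule for named transcripts and was chosen after its values were seen. It fell from 39.1, 56.7, 55.5, 49.6 and 24.2% in WT to at most 0.0163% in miR-324-null samples (0.0143 and 5.14e-06), from 40.2 to 91.7 counts and at most 0.02 counts. In the hippocampus its counts overlapped, at 0 to 66.8 in WT samples and 0 to 89.2 in miR-324-null samples. Its share there ranged from 0% to 48.8% within WT samples alone. In WT neocortex another transcript of the gene, Poli-205, ranged from 0.00265% to 60.9%. The part of read division in the difference of Poli-203 was not tested.

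**Figure D5:**
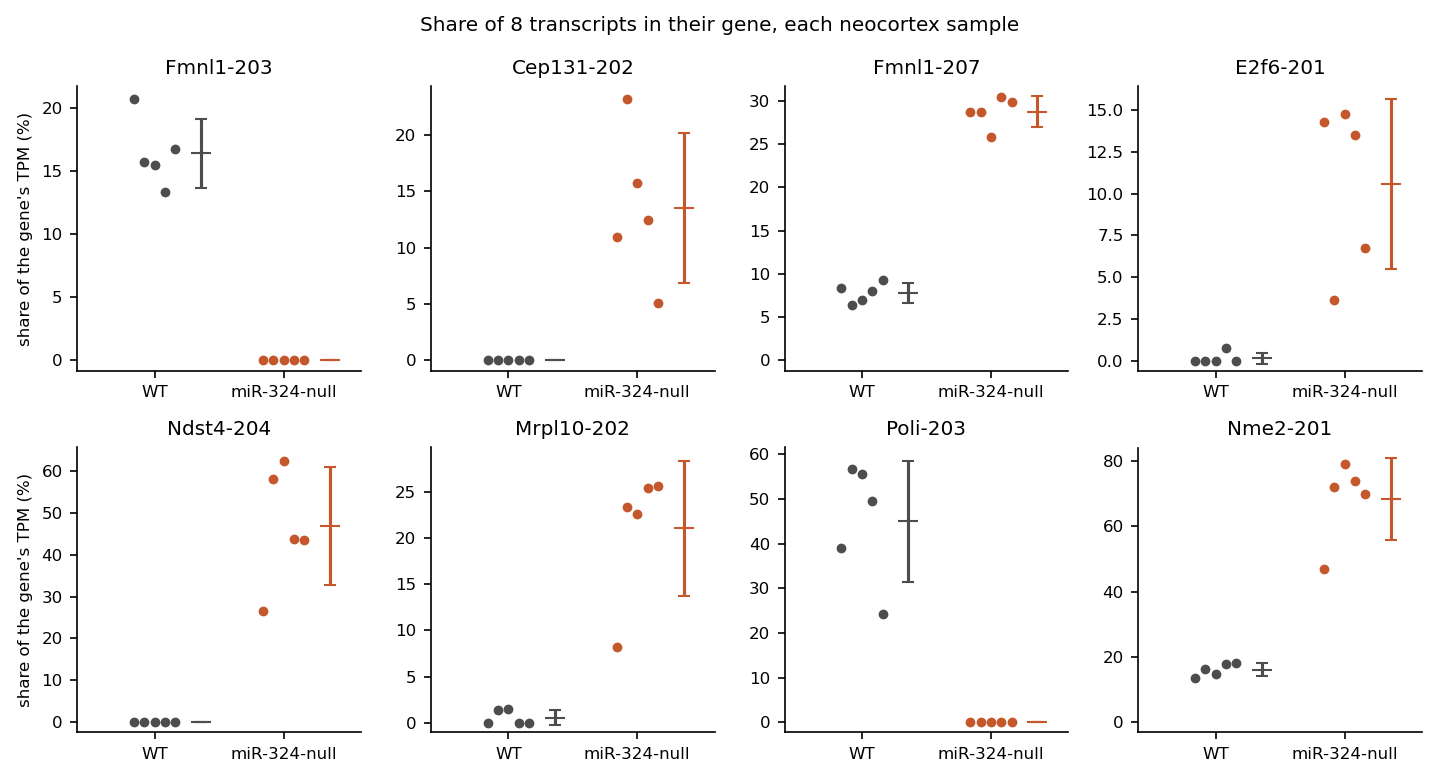
Share of the gene's TPM (y axis, percent) taken by 8 transcripts in neocortex replicates 1 to 5 from left to right, with mean and SD beside each group (n = 5): the 7 called by both tests and Nme2-201. Fmnl1-203 and Poli-203 are near 0 in every miR-324-null sample, and Cep131-202 and Ndst4-204 are at 0 in every WT sample.

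In 2 genes of chromosome 11 each test called another transcript of the same gene, named after their values were seen unless noted. In *Nme2*, a nucleoside diphosphate kinase, limma called Nme2-201, at 13.5, 16.2, 14.9, 17.9 and 18.00% in WT samples and 46.8, 72.00, 78.95, 73.9 and 69.8% in miR-324-null samples (adjusted p = 0.00125), and edgeR called Nme2-202 (adjusted p = 0.0428). They differ in their 5′ ends outside the coding sequence, and the gene as a whole fell (log2FC -1.34, adjusted p = 9.53e-05). In *Dgke*, diacylglycerol kinase epsilon, edgeR called Dgke-201, named by the rule, at 50.9, 45.9, 49.3, 45.96 and 49.8% in WT samples and 2.003, 19.4, 12.3, 21.4 and 8.86% in miR-324-null samples (adjusted p = 0.022), and limma called Dgke-202 (adjusted p = 0.00421). The groups did not overlap for any of these 4 transcripts. The tests had picked these 4 by their difference, and the share of all transcripts tested without overlap is not given, so the separation only describes them. The rule named 5 further transcripts that edgeR alone called. Pfkfb2-211, of a regulator of glycolysis, was at 0% to 2.33% in WT samples and 2.47% to 11.9% in miR-324-null samples. Mrpl3-209 was at 0% to 1.42% and 1.97% to 6.57%, and Vps16-205, of a subunit of the endosomal tethering complexes, at 0% to 1.08% and 2.14% to 4.94%. Nfe2l1-202, of a factor that drives proteasome genes, was at up to 7.87% and 15.5% to 19.3%. Cadps2-213, of a priming factor for dense-core vesicles and the only transcript of the synaptic lists called, was at 7.19% to 21.5% and 1.17% to 7.04%. For all 5 the limma test did not pass, with adjusted p from 0.0654 to 0.596. Limma alone called 4 more, named after their values were seen. Kcnip2-203, of an auxiliary protein of Kv4 potassium channels, took 0% in WT samples and 3.10% to 12.1% in miR-324-null samples (adjusted p = 0.0191). Fes-208, of a tyrosine kinase, was at up to 2.51% and at 14.7% to 51.5% (0.0104), and in the hippocampus at up to 38.2% in WT samples and up to 1.91% without miR-324. R3hdm2-206 was at 1.97% to 2.95% and 0.229% to 0.470% (0.00202), and Ndst4-202 at 28.7% to 60.3% and 4.37% to 9.19% (0.0266). The counts of Ndst4-202 overlapped, at 7.53 to 18.2 in WT samples and 8.05 to 29.5 in miR-324-null samples. Those of Ndst4-204, of the same gene, were 0 in WT samples and 68.3 to 269 in miR-324-null samples.

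The shares of the annotated transcript classes in the library are given as values, since 1 class alone could not pass a test adjusted over 8 classes at 5 against 5 samples. Protein-coding transcripts took 90.85% ± 0.52 of the estimated counts in WT samples and 91.05% ± 0.30 in miR-324-null samples (SD, n = 5 each). Retained introns took 3.43% ± 0.321 and 3.39% ± 0.190, and transcripts marked for nonsense mediated decay 2.37% ± 0.0662 and 2.41% ± 0.0624. In two-sided exact permutation tests of 8 classes, the smallest p that 5 against 5 samples can give is 0.00794, which for a single class adjusts to 0.0635, and the lowest adjusted p was 0.286. The lowest raw p, 0.0397 in the exact permutation test, was that of the mixed class of remaining types, at 0.787% ± 0.0839 in WT samples and 0.664% ± 0.0312 in miR-324-null samples. Its main member, the unprocessed pseudogene transcript Gm29216-201, named after its values were seen, took 0.562% to 0.767% in WT samples and 0.550% to 0.640% in miR-324-null samples. Processed pseudogenes were at 0.294% ± 0.0251 and 0.256% ± 0.0319 (exact permutation p = 0.0714).

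Whether a genotype difference of the neocortex was particular to it was tested as a genotype-by-tissue interaction over all 20 samples. Of 15391 genes, 3 passed (0.0195%): *Ndst4*, *Mdga1* and *Sema5b*, none of them a list member and all named after their values were seen. With the replicate number as a block, 0 genes passed. Of 733 list members tested, 66 had a nominal p of 0.05 or less, a larger share than the 5.57% of all genes tested. The lowest adjusted p was 0.327, for *Prkcd*, at 0.73 in the neocortex and -0.33 in the hippocampus. No list member was thus shown to differ between the tissues in its response to genotype.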

How the data were processed

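Estimated counts and TPM per transcript were used as the authors deposited them, for 20 samples. The authors made stranded mRNA libraries and assigned the reads with kallisto to an Ensembl transcriptome of GRCm38. The version of kallisto and whether it used the strand are not given in the sources used here. The deposited estimated counts are not normalized, and the deposited TPM are scaled to transcript length and library. Genotype, tissue and replicate number came from the sample labels. Of 115270 transcripts, 113580 matched GENCODE release M21 by identifier, and the 1690 others held at most 0.56% of the counts of a sample and were not used. Gene counts are the sums over transcripts of each of 35580 genes, as whole numbers.

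Genotypes were compared with edgeR 4.0.16 (R 4.3.3) by the quasi-likelihood test on all genes that passed edgeR's default filter, with TMM normalisation and Benjamini-Hochberg adjustment at 0.05. All adjusted p of genes are from this edgeR test unless another is named. CPM are edgeR's TMM-normalised values, which are not per length, so levels are not compared between genes. Transcript usage was tested with edgeR's exon-level test applied to transcripts, and alternatively with limma 3.58.1 on log2 of the percent share of the gene's TPM plus 1. Both were tested on simulated data, where edgeR's usage test made about as many calls without a difference as on the deposited counts. The simulation drew each transcript on its own and holds no error of dividing reads between transcripts. Shares of 8 transcript classes were compared by two-sided exact permutation tests in Python 3.11.15 (numpy 2.4.6, scipy 1.17.1, pandas 2.3.3). The floor of 3 counts covers counting error only, and SDs are over samples. The SE of a log2FC was derived from edgeR's test, as its absolute value divided by the square root of the F statistic. It therefore holds no information beyond the p of that test.

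The comparison, the gene lists and the tests were chosen with earlier results of these data known. Named are, in each list, the members called, the 2 tested members of lowest p and, of cell types, the first 2 genes as defining markers, and for usage the called transcripts of the 10 genes of lowest p and of list members. A few of the genes so named are left out of the text. The alternatives comprised the size factors of DESeq2, no filter, at least 10 counts in every sample, DESeq2 1.42.0, the transcript-length offset, all 20 samples, the replicate number as a block, the striatal covariate, removal of the mitochondrial genome mRNAs and each sample left out in turn. The hippocampus was fitted alone and in the interaction fit, which takes the samples of the 2 tissues as independent.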

Additional observations from a re-analysis of the deposited data

Results flagged for a closer look

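Chance alone marks about 1 in 20 groups of 5 samples by the gap used here, and 11 of the 118 groups looked at were marked. WT replicate 2 stood above its group in the summed striatal genes, at 2224 CPM against 1394 to 1625 CPM in the 4 other WT samples, and in the summed hippocampal neuron genes, at 62.4 against 53.5 to 55.8 CPM. The tissue lists marked 1 miR-324-null library, replicate 2, with olfactory bulb genes at 55.8 against 8.10 to 12.3 CPM, myelin genes at 8717 against 5880 to 6452 CPM and choroid plexus genes at 920.2 against 111 to 165 CPM.

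WT replicate 1 had the lowest share of the remaining transcript classes, at 0.639% of the counts against 0.806% to 0.848% in the 4 other WT samples. Among transcript shares, E2f6-201 was at 0.766% in WT replicate 4 and at most 0.00199% in the others, Pfkfb2-211 at 2.33% in WT replicate 3 and at most 0.00222% in the others, Mrpl3-209 at 1.42% in WT replicate 3 and Vps16-205 at 1.08% in WT replicate 5, with 0% in the others of each. Mrpl10-202 was at 8.16% in miR-324-null replicate 1 and at 22.6% to 25.7% in the 4 others.

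The genotype difference itself differed between the tissues for 3 genes by the edgeR interaction test. For *Ndst4* the interaction was 3.07 on the log2 scale (adjusted p = 0.0163), with a neocortex value of 2.82 and a hippocampus value of -0.26. For *Mdga1*, an adhesion protein of the synapse, it was 0.97 (adjusted p = 6.87e-04), from 0.78 and -0.20. For *Sema5b*, a semaphorin, it was 0.88 (adjusted p = 0.0242), from 0.49 and -0.39, neither of which passed the test within its tissue. None of the 3 passed with the replicate number as a block.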

How the results depend on the processing

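The count of DE genes in the neocortex was 47, and it was 26 with at least 10 counts in every sample, 241 with DESeq2, 30 with the length offset in edgeR, 195 with that offset in DESeq2, 12 with the striatal covariate and 27 to 549 with 1 sample left out, where 549 came without miR-324-null replicate 5 and 27 to 34 without any other. The count of DE list members was 4, and it was 2 with at least 10 counts in every sample, 26 with DESeq2, 19 with the offset in DESeq2, 2 with all 20 samples, 1 with the striatal covariate and 1 to 64 with 1 sample left out, 64 without miR-324-null replicate 5. Transcripts called for usage were 22 with edgeR, 13 with limma on shares and 13 to 61 with 1 sample left out, 61 without WT replicate 1. Genes called for the interaction were 3, 7 with DESeq2 and 1 to 20 with 1 sample left out, 20 without neocortex miR-324-null replicate 5. The cause of these shifts was not tested.

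With the replicate block, 30 genes were DE in the neocortex, 24 of them among the 47, 3 list members were (*Mrpl27*, *Egr1* and *Egr2*, the last with a log2FC of -1.44 and an adjusted p of 0.0296, while *Nr4a3* (adjusted p = 0.071) and *Rplp0* (adjusted p = 0.0785) no longer passed), 28 transcripts were called for usage and 0 genes for the interaction. Deviations of WT and miR-324-null samples of 1 number correlated at -0.12 to 0.16, and 1 of 5 was closest to its own number. Across the tissues, samples of 1 genotype and number correlated at -0.13 to 0.11 in WT and at -0.030 to 0.22 in miR-324-null samples, and 5 of 10 hippocampus samples were closest to their own number, a hint from the data. The labels do not say what a number marks and not every pair exceeded 0.1, so the samples were not taken as paired.

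The sign of *Gapdh* turned with the length offset, to -0.030 in edgeR and -0.033 in DESeq2. That of *Dvl2* turned with the striatal covariate (-0.045) and ranged from -0.0058 to 0.12 with 1 sample left out. That of *Doc2g*, an olfactory bulb gene, ranged from -0.076 without miR-324-null replicate 2 to 1.09. Of the values of log2FC under alternatives, 1345 kept direction and call, 48 gained a call, 38 lost one and 5 turned sign, and of the list medians 687 moved by less than the spread between samples and 12 by more. That spread is a wide limit, since 29 of the 35 medians moved by over 1.5 times or turned sign with 1 sample left out, as given above. Low counts limit the transcripts with shares of a few percent, and the error of dividing reads between transcripts is not in these files.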
